A study of Arabidopsis thaliana with 30 samples.

Results

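The 42 Arabidopsis loci described here make, break down, perceive and respond to the plant hormone jasmonate. They were taken by locus identifier from the 38194 loci of a count table, and comprise 14 genes of synthesis, 4 of turnover, the receptor COI1 with the adaptor NINJA, 12 JAZ repressors, 5 transcription factors and 5 response genes. Of the 42, 39 passed a filter on low counts and were tested. The 3 that did not were the lipase gene DAD1, with at most 5 counts in a library, and the repressor genes JAZ4 and JAZ7, with at most 10 and 4.

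RNA came from whole detached leaves 1 and 2 of 10 d old Columbia-0 seedlings grown in continuous light at a constant temperature. In both treatments the leaves were surface sterilised and shaken in a buffer of Murashige and Skoog salts with 5% glucose and 0.2% dimethyl sulfoxide, which is the mock. The stimulus is the same buffer with 20 µM bikinin, kinetin at 0.5 µg/mL and 2,4-Dichlorophenoxyacetic acid at 2.5 µg/mL, and the study describes it as a transdifferentiation treatment. Leaves were collected at 6, 7, 8, 9 and 10 h, with 3 biological replicates per treatment and hour, each a pool of leaves, so that no value belongs to 1 plant. A 5 h time named in the design was not analysed here. Bikinin inhibits the kinases that restrain brassinosteroid signalling, 2,4-Dichlorophenoxyacetic acid is a synthetic auxin and kinetin is a cytokinin. No group was treated with jasmonate, and no leaf was left on the plant, so detachment and sterilisation are shared by all groups.

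Jasmonate is made from plastid fatty acids by lipoxygenases, allene oxide synthase and allene oxide cyclases, finished in the peroxisome, and conjugated to isoleucine by JAR1. The conjugate joins the F-box protein COI1 to JAZ repressors, which are then degraded, and this frees MYC transcription factors that switch on defence and wound genes, among them the genes for jasmonate synthesis and for the JAZ proteins themselves. In leaves the pathway is known for its rapid response to wounding and to insects.

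The 30 libraries held between 14981271 and 22729166 counts. Before any result 2 features of the libraries bear on all of them. The columns of mock 6 h replicate 3 and mock 7 h replicate 3 had equal counts throughout, as no other pair of the 435 had, so there were 29 distinct libraries, 14 of them mock, and which label is right is not known. Replicate 3 stood apart in every group, with 0.556 to 0.872% of its counts on plastid loci against 1.37 to 3.09% in replicates 1 and 2, and results are therefore also given for the 2 sets of replicates. The stimulus was visible in the libraries that carry its label: GH3.3, an early auxin response gene, stood at 892 to 1267 CPM (counts scaled by the size of each library) there and at 0.173 to 5.98 CPM in mock. ARR5, induced by cytokinin, and DWF4, a brassinosteroid synthesis gene that is repressed when signalling is on, differed by 5.32 ± 0.41 and -3.08 ± 0.38 log2 on average (SE).

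Markers of leaf cell types also moved. All 3 mesophyll markers (RBCS1A, LHCB1.1 and CA1) were lower on average, and their summed level was 5976 to 13620 CPM in mock and 3723 to 6815 CPM in the stimulus. SUC2, of phloem companion cells, was higher by 1.28 ± 0.09 log2, while AHA3 was not called, and the 2 summed to 105 to 237 CPM in mock and 188 to 290 CPM in the stimulus. Of 3 guard cell markers KAT1 and of 2 trichome markers GL2 were lower, the 3 epidermal markers were not called, and GL1 had too few counts to be tested. The root markers WER and COBL9 had at most 4 counts in any library and RHD6 none. The part of these shifts in the results below was not tested. In whole leaves, fewer cells of a type and less RNA per cell cannot be told apart.

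The first question was whether leaves in the stimulus held more or less jasmonate RNA than leaves in mock. Most genes were lower. Averaged over the 5 hours, 30 of the 39 tested genes were lower and 3 higher, while 27% of all 21052 genes tested were lower and 29.7% higher (edgeR quasi-likelihood test, Benjamini-Hochberg adjusted p under 0.05). The median log2 fold change was -0.96 over the 39 genes and 0.02 over all genes tested. By role, 11 of 13 synthesis genes were lower, 2 of 4 turnover genes, 7 of 10 JAZ genes, all 5 transcription factors, 4 of 5 response genes, and COI1. The 3 higher genes were TAT3, JAZ11 and NINJA. In 19 of the 39 genes the stimulus library was below the mock library of the same replicate number in all 15 pairs, as it was for 13.7% of all genes tested. The replicate 3 pairs at 6 and 7 h share a mock library.

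This average treats the hours of a replicate number as separate libraries. When counts were summed over the hours, which leaves 3 mock and 3 stimulus sums, 15 genes were lower, against 3.48% of 22213 genes tested, and 0 higher. The 15 were LOX2, LOX3, LOX6, AOS, AOC1, AOC2, CYP94B3, JAZ2, JAZ6, JAZ8, JAZ9, ORA47, VSP2, CORI3 and CLH1. With the replicate number as a block on the same sums 16 were lower, against 1538 of 22213 genes. MYC2 and MYC3 were added and JAZ6 was lost. Every stimulus library lay below every mock library for 11 of the 39 tested members, against 3.97% of all genes tested. These 11 are the 15 named above without AOS, AOC2, CYP94B3 and ORA47.

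**Figure D1:**
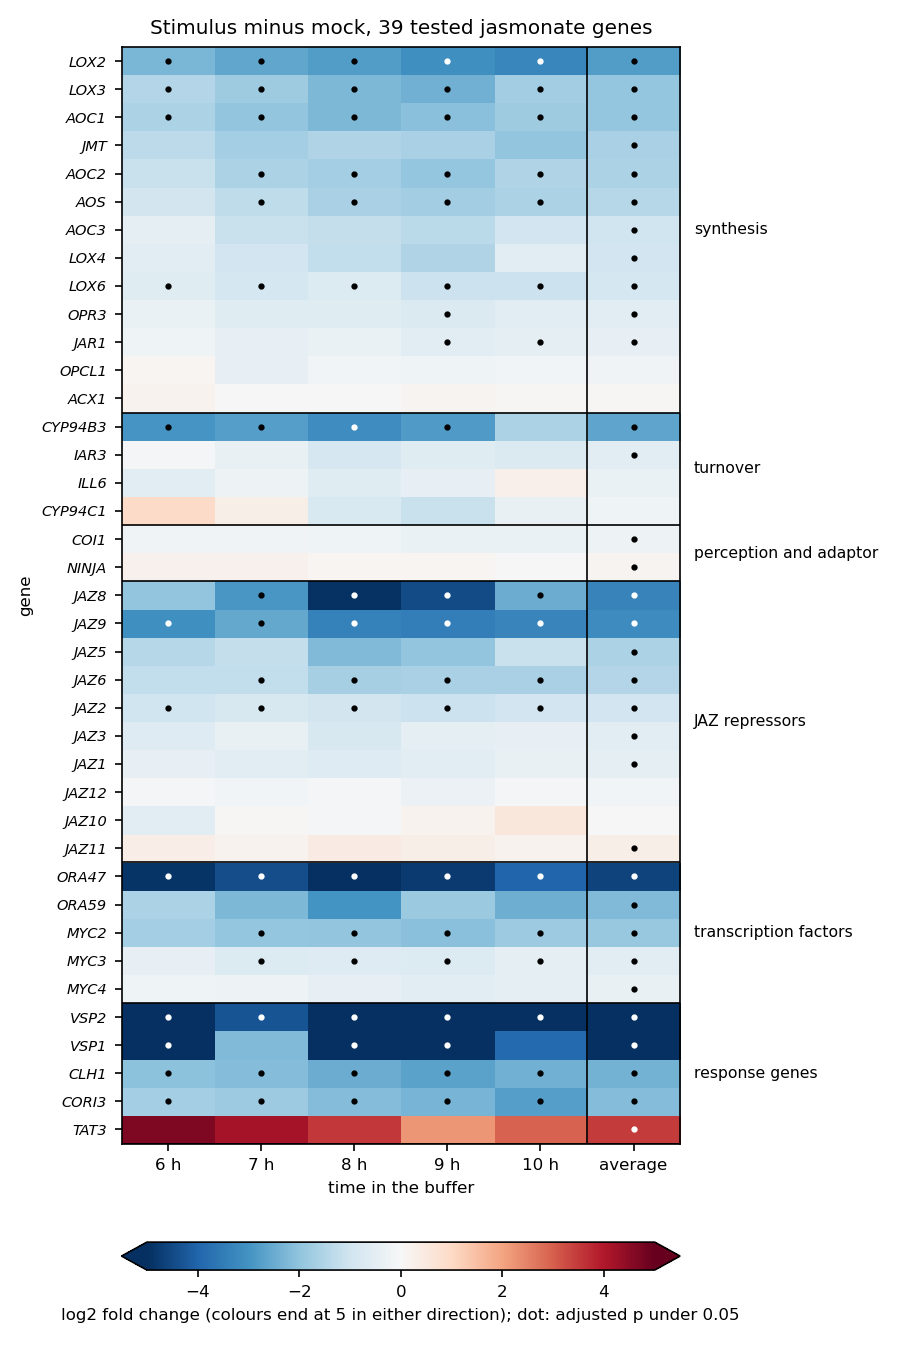
Log2 fold change of stimulus over mock for the 39 tested genes (rows, grouped by role) at each hour and averaged (columns); blue is lower in the stimulus, red higher, and a dot marks an adjusted p under 0.05. Blue prevails in every role but that of receptor and adaptor, where COI1 is faintly lower and NINJA faintly higher. In the average column 30 genes carry a dot for lower, and the only row in strong red is that of TAT3.

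Hour by hour the same direction prevailed. At 6 h 12 of 39 genes were lower (3.84% of all genes tested), at 7 h 17 (8.14%), at 8 h 18 (6.39%), at 9 h 20 (8.55%) and at 10 h 17 (9.34%). In this fit, which has no replicate block, no tested member was higher at any hour, where 6.03%, 8.9%, 6.54%, 7.97% and 9.74% of all genes were. At an unadjusted p under 0.05, 1 member was higher at 6 h, 1 at 7 h and 0 at the later hours. DESeq2 called 1 higher at each of the first 2 hours, against 1821 and 2360 of 21052 genes. Replicates 1 and 2 alone gave 1 at 7 h, against 4272 of 21066 genes. With the replicate number as a block NINJA was higher at 6 and 7 h, as were 17% and 19.4% of all genes. Lower at all 5 hours were 10 of the 39 genes, 25.6% against 2.58% of all genes: LOX2, LOX3, LOX6, AOC1, JAZ2, JAZ9, ORA47, VSP2, CORI3 and CLH1. In 6 of the 10 no hourly call was lost in any of the 30 fits that left out 1 library. LOX6 lost its call at 6 h in 23 of those fits (adjusted p up to 0.153) and at 8 h in 4. ORA47 lost its call in 2 to 4 fits at every hour, each without a mock or stimulus library of that hour (adjusted p up to 0.126). LOX2 lost the call at 6 h without stimulus 6 h replicate 3 (adjusted p = 0.0589), and CORI3 lost it at 6 h without mock or stimulus 6 h replicate 3 (adjusted p up to 0.131). With the replicate number as a block the counts from 6 to 10 h were 19, 20, 22, 26 and 20, against 13.4%, 18.4%, 16%, 18% and 18.6% of all genes. Without stimulus 8 h replicate 1 the count at 8 h was 11, and without stimulus 10 h replicate 1 that at 10 h was 11.

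Whether the response changed from hour to hour was tested by the interaction of treatment and hour and by the difference of the hourly slopes. Neither called a member by edgeR, with 0 members at an unadjusted p under 0.05 and 0 by DESeq2 in each, and over all genes the calls were 0% and 0.019%. In replicates 1 and 2 alone 2 members passed the interaction and 3 the difference of slopes. Of the 21066 genes tested there, 596 and 1624 did.

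Some of the promoters of these genes carry the letters that MYC factors are known to bind, and 3 of them are shown here because they belong to called genes of both the synthesis and the repressor group. The 250 bases before the annotated start were read from the RefSeq sequence of TAIR10.1. The count table holds no coordinates and its notes name TAIR10. The G-box CACGTG is in capitals.
AOS: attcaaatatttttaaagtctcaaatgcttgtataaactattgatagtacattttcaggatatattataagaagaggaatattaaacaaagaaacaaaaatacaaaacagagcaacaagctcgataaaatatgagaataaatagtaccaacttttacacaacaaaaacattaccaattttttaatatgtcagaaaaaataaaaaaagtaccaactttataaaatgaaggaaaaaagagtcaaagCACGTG
JAZ2: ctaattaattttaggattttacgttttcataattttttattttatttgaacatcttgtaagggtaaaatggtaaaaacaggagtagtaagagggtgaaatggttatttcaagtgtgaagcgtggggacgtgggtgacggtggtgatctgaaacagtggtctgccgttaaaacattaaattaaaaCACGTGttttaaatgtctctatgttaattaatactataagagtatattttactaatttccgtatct
JAZ8: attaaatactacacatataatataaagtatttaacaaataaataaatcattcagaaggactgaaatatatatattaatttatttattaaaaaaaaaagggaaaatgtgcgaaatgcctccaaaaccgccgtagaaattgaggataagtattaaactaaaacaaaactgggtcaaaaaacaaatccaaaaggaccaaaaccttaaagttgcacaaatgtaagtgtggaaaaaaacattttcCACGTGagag
These windows lie at chr5:17099596-17099845 on the minus strand (AOS), chr1:28150447-28150696 on the minus strand (JAZ2) and chr1:10596102-10596351 on the plus strand (JAZ8), and the G-box begins 6, 66 and 10 bases before the start.

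Motifs were searched in windows of 300 bases, the 250 before the start and the first 50 of the transcript, on both strands and with overlaps allowed. The G-box was in 7 of the 42 windows, 16.7%, against 7.68% of the windows of 27443 protein-coding genes. Besides the 3 shown, these are ACX1, JAZ3 with 2 copies, JAZ7 and ORA59. The variant AACGTG, which reads CACGTT on the other strand, was in 12 windows, 28.6% against 8.95%, and either motif in 18, 42.9% against 15.8%. GCCGCC, the core of the GCC box bound by ethylene response factors, was in 1 window, that of ORA59, 2.38% against 2.57%. Of the 30 genes lower on average 14 held a G-box or its variant, and of the 9 tested genes not lower 2 did. A match describes the letters of a window only.

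**Figure D2:**
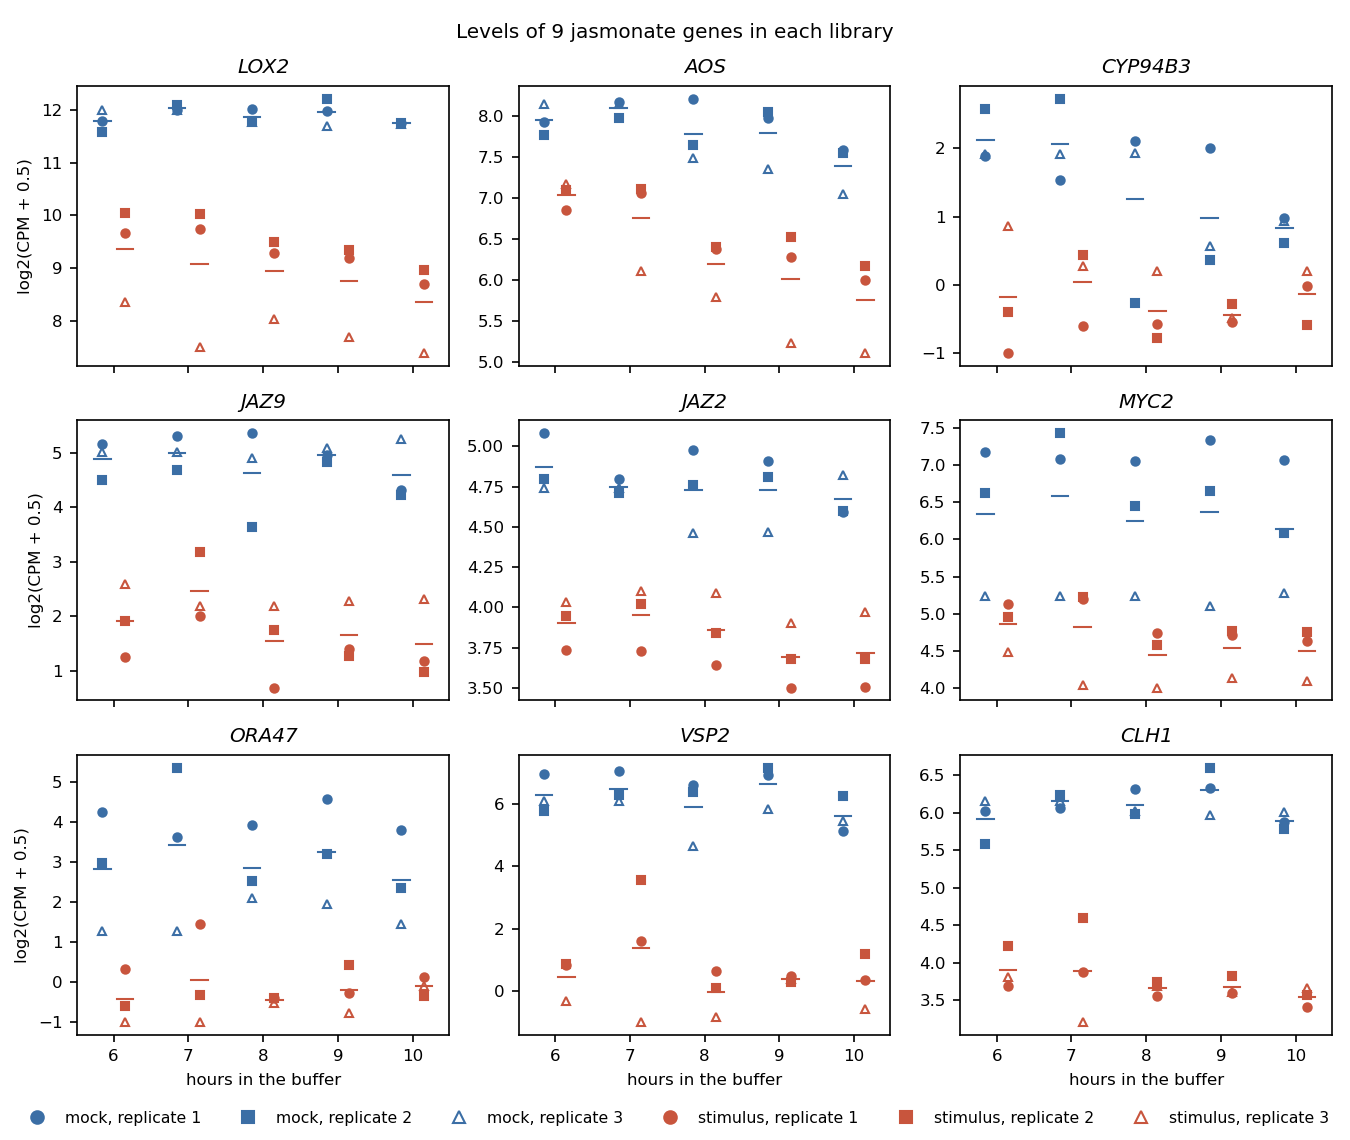
Level of 9 genes in each library, as log2 of CPM plus 0.5, against the hours in the buffer; blue is mock, red stimulus, symbols are replicates (open triangles replicate 3) and short lines are group means. In LOX2, AOS, JAZ9, JAZ2, MYC2, VSP2 and CLH1 the red points lie below the blue ones at each hour. The open triangles lie below the other symbols of their colour in MYC2, for mock in ORA47 and for the stimulus in LOX2.

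Among the synthesis genes the largest fall was in LOX2 (AT3G45140, chr3:16525245-16529352 of TAIR10.1), the lipoxygenase of the leaf plastid and at 1160 CPM per kilobase of exon the most abundant member in mock. Over the 14 distinct mock libraries its lowest, median and highest levels were 3079, 3539 and 4751 CPM, and over the 15 stimulus libraries 166, 587 and 1056 CPM. The ranges did not overlap, and the lowest stimulus value at each hour was that of replicate 3. Its log2 fold change averaged -2.80 ± 0.24 (SE, adjusted p = 2.09e-09) and was -2.29 ± 0.53 at 6 h and -3.26 ± 0.55 at 10 h. LOX3, another plastid lipoxygenase, went from 19.9, 29.6 and 59.8 CPM in mock to 5.76, 7.75 and 16.3 CPM in the stimulus (lowest, median and highest), an average of -1.93 ± 0.16 (adjusted p = 8.51e-10). LOX6, at -0.86 ± 0.09, also separated the treatments completely, while LOX4, at -0.96 ± 0.25, overlapped at 9.51 to 56.6 CPM in mock and 5.37 to 16.1 CPM in the stimulus.

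The steps after the lipoxygenases were lower too. AOS, allene oxide synthase, ranged from 132 to 296 CPM in mock and from 33.9 to 143 CPM in the stimulus, with an average of -1.42 ± 0.14 (adjusted p = 2.46e-08). Within the stimulus it fell by 0.32 ± 0.07 log2 per hour (edgeR adjusted p = 0.0281), the only trend of a member called without a replicate block over all libraries, where 1.02% of all genes had one. With the block and by DESeq2 AOC2 and NINJA were called as well, at -0.29 ± 0.05 and -0.07 ± 0.02 log2 per hour with the block. Over all 21052 genes 1342 were called with the block and 472 by DESeq2. In replicates 1 and 2 alone 11 members were called, against 3495 of the 21066 genes tested there. Of the 11, ACX1 (0.09 ± 0.02) and JAZ10 (0.17 ± 0.05) rose and the others fell. The AOS call without the block was lost when all libraries of 6 h or all of 10 h were removed, and in 7 of the 30 fits that left out 1 library (stimulus libraries of 6, 7 or 10 h).

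AOC1, AOC2 and AOC3, allene oxide cyclase genes that lie side by side between chr3:9403779 and chr3:9411090, averaged -1.93 ± 0.13, -1.57 ± 0.19 and -1.01 ± 0.24. AOC1 stood at 11 to 23.7 CPM in mock and 2.68 to 7.80 CPM in the stimulus, without overlap. Of the 31-base words of their exons 6.37%, 3.39% and 4.0% occur elsewhere, each most often in another AOC gene, so few of their reads can be confused. OPR3, the reductase of the peroxisome, and JAR1, the conjugating enzyme, fell less, at -0.56 ± 0.11 and -0.40 ± 0.07. JMT, which methylates jasmonate, stood at 1.09 to 5.59 CPM in mock and 0.272 to 2.36 CPM in the stimulus, at -1.62 ± 0.31. The coenzyme A ligase OPCL1 (-0.16 ± 0.18) and the acyl-CoA oxidase ACX1 (0.07 ± 0.12) were the 2 tested synthesis genes not called.

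Of the turnover genes, CYP94B3, whose product oxidises the active conjugate, was lower by 2.65 ± 0.41 log2 (adjusted p = 1.14e-05). It ranged from 0.333 to 6.10 CPM in mock and from 0 to 1.31 CPM in the stimulus, so the ranges overlapped at low counts. IAR3, an amidohydrolase that cleaves the conjugate, was lower by 0.53 ± 0.18. CYP94C1, the next oxidase of the same route, and the amidohydrolase ILL6 were not called on average, at -0.20 ± 0.28 and -0.32 ± 0.25.

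The receptor and the adaptor changed little in size. COI1 ranged from 40.3 to 53.3 CPM in mock and from 35.2 to 50.1 CPM in the stimulus, a fall of 0.25 ± 0.06 log2 (adjusted p = 0.00185). NINJA, which ties JAZ proteins to a corepressor, ranged from 49.1 to 58.1 CPM and from 52.2 to 72.6 CPM, a rise of 0.13 ± 0.04 (adjusted p = 0.00956). Neither passed at a single hour without a replicate block. With the block NINJA passed at 6 h (0.22 ± 0.07, edgeR adjusted p = 0.0267) and 7 h (adjusted p = 0.0355), and COI1 at 9 h (-0.34 ± 0.09, adjusted p = 0.00617) and 10 h (adjusted p = 0.00667).

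The JAZ repressor genes ranged from strongly lower to slightly higher. JAZ9 (AT1G70700) stood at 11.9, 30 and 40.7 CPM in mock and 1.11, 3.27 and 8.59 CPM in the stimulus (lowest, median and highest), without overlap, and averaged -3.15 ± 0.24 (adjusted p = 3.26e-10). JAZ8, a repressor known to be stable because it lacks the usual degradation signal, was rare, with 172 counts over the 14 mock libraries and 20 over the 15 stimulus libraries, 4 of which had none. Its levels were 0.231 to 1.24 CPM and 0 to 0.211 CPM, also without overlap, and its average was -3.36 ± 0.35 (adjusted p = 4.01e-08). JAZ2, whose promoter is shown above, went from 21.5 to 33.4 CPM down to 10.8 to 16.7 CPM, an average of -0.95 ± 0.08. JAZ5, JAZ6, JAZ3 and JAZ1 were lower by 1.58 ± 0.33, 1.47 ± 0.18, 0.54 ± 0.16 and 0.50 ± 0.11.

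The other 3 tested JAZ genes did not follow. JAZ10, a repressor that is itself known as a jasmonate response gene, stood at 3.28 to 9.77 CPM in mock and 4.11 to 9.60 CPM in the stimulus, at 0.04 ± 0.17. JAZ12 was at -0.15 ± 0.07 (adjusted p = 0.0728) and passed with the replicate number as a block, at -0.16 (adjusted p = 0.039), but not on sums over hours with that block, at -0.15 (adjusted p = 0.447). JAZ11 was higher by 0.28 ± 0.09 (adjusted p = 0.0124), at 6.19 to 12.7 CPM in mock and 9.86 to 16.2 CPM in the stimulus, although in replicates 1 and 2 alone its value was 0.09 (adjusted p = 0.2105).

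All 5 transcription factor genes were lower on average. ORA47 (AT1G74930), an AP2/ERF factor that activates genes of jasmonate synthesis, had the largest fall, from 1.93, 8.09 and 40.9 CPM in mock to 0, 0.287 and 2.26 CPM in the stimulus (lowest, median and highest). The average was -4.61 ± 0.57 (adjusted p = 4.37e-07), with 2 stimulus libraries at 0 and the highest stimulus library above the lowest mock library. ORA59, of the joint ethylene and jasmonate response, was rare, at 0.0973 to 2.26 CPM and 0 to 0.447 CPM, and averaged -2.22 ± 0.57 without passing at any hour. MYC2 (AT1G32640), the chief bHLH factor of the response, stood at 33.8, 99.1 and 172 CPM in mock and 15.6, 25.7 and 36.9 CPM in the stimulus, an average of -1.90 ± 0.27 (adjusted p = 3.13e-06). Its relatives MYC3 and MYC4 fell by 0.57 ± 0.07 and 0.38 ± 0.14.

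MYC2 lay at 67.5 to 172 CPM in mock replicates 1 and 2 and at 33.8 to 38.5 CPM in mock replicate 3, so the ranges of the 2 treatments met through replicate 3 alone. MYC2, ORA47, COI1, JAZ10 and JAZ12 overlap a gene on the other strand. Counting appears to have used strand. For loci nested inside a longer locus, the longer one never had fewer counts in 141 of 143 same-strand cases and in 41 of 170 cases of unlike strand. The partners of MYC2, ORA47 and JAZ10 had at most 71, 5 and 0 counts in a library. Those of COI1 and JAZ12 had up to 1286 and 478.

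The response genes held the largest changes. VSP2 (AT5G24770, chr5:8500468-8502224), a vegetative storage protein with phosphatase activity that accumulates in leaves under jasmonate, stood at 24.7, 75.8 and 142 CPM in mock and 0, 0.813 and 11.2 CPM in the stimulus. The ranges did not overlap, 1 stimulus library was at 0 and the highest was 7 h replicate 2. Its average was -6.06 ± 0.46 (adjusted p = 2.82e-10). Its neighbour VSP1 went from 0.983 to 46.5 CPM down to 0 to 6.47 CPM, with 163 counts over all stimulus libraries, 128 of them in 7 h replicate 2, and averaged -5.38 ± 0.70 (adjusted p = 1.07e-06). The 2 genes share 4.95 to 5.77% of their 31-base words. CLH1, a chlorophyllase, ranged from 47.7 to 96.8 CPM and from 8.75 to 23.8 CPM, an average of -2.36 ± 0.11 (adjusted p = 7.76e-14), the smallest adjusted p among the members. CORI3, a cystine lyase, ranged from 187 to 423 CPM and from 30.2 to 130 CPM, at -2.15 ± 0.21.

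TAT3 (AT2G24850), a tyrosine aminotransferase gene used as a jasmonate marker, went the other way in 1 replicate number. In stimulus replicate 3 it stood at 730, 540, 439, 350 and 397 CPM from 6 to 10 h, and in stimulus replicates 1 and 2 at 0.384 to 12.2 CPM. Mock libraries lay between 0.493 and 35.4 CPM. Its average was 3.50 ± 1.08 (adjusted p = 0.00867), but -0.66 in replicates 1 and 2 alone (adjusted p = 0.221). With the replicate number as a block it was 0.89 (adjusted p = 0.309), on sums over hours 3.41 (adjusted p = 0.276), and without stimulus 7 h replicate 3 it was 2.26 (adjusted p = 0.055). The stimulus libraries above the mock range were the 5 of replicate 3 and no others.

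The response was therefore compared between replicate 3 and replicates 1 and 2. In replicates 1 and 2, 32 of 39 members tested there (JAZ4 among them and ORA59 not) were lower on average and 1 higher, against 32.2% and 33.1% of all genes tested there. In replicate 3, taken over its 5 hours, 24 of 38 members tested were lower and 9 higher, against 33.8% and 35.1%. The medians were -0.94 and -0.68, and 10 of the 37 members tested in both sets had opposite signs, against 24.2% of all genes tested in both. On sums over hours the response of 24 of 40 members tested differed between the sets, against 38% of all genes tested. That test takes its spread from replicates 1 and 2 only, and replicate 3 is a single set. The separate fit of replicate 3 took its spread from the differences between its hours. The mock library that is repeated under another hour entered that fit as if it were separate.

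ORA47, CLH1, JAZ9, LOX6 and MYC3 had close values in both sets, at -4.71 and -4.23, -2.29 and -2.56, -3.40 and -2.91, -0.85 and -0.92, and -0.58 and -0.58. Lower in replicates 1 and 2 and higher in replicate 3, both past the threshold, were 4 genes, OPCL1 (-0.64 and 0.75), CYP94C1 (-0.85 and 1.37), IAR3 (-0.88 and 0.27) and ILL6 (-0.94 and 1.19), where 2.59% of all genes were. The threshold in replicate 3 rests on the spread between its hours, with a repeated mock library among them. The calls of these 4 genes there are therefore not backed by separate replicates. In ILL6 the sets differed in both treatments. Mock replicate 3 lay at 2.18 to 4.43 CPM and mock replicates 1 and 2 at 6.77 to 14.2 CPM, while stimulus replicate 3 lay at 7.20 to 12.6 CPM and stimulus replicates 1 and 2 at 3.40 to 8.69 CPM. JMT and LOX2 were lower in both sets and further so in replicate 3, at -0.74 and -3.51 and at -2.44 and -4.09.

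**Figure D3:**
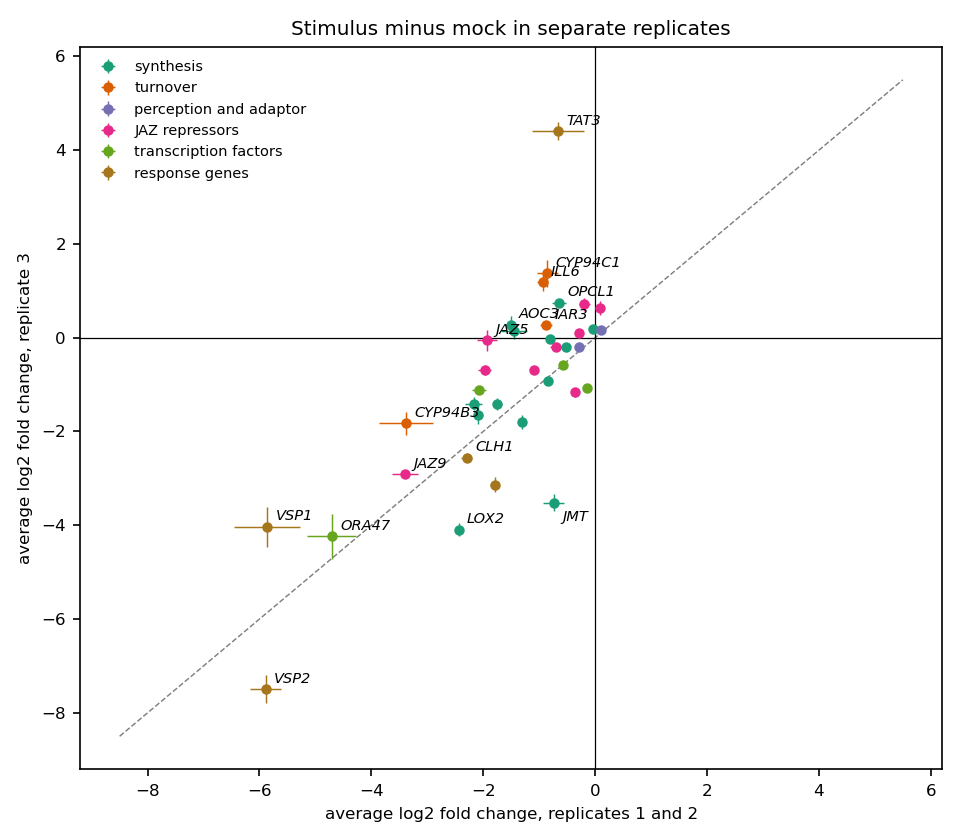
Average log2 fold change of the 37 genes tested in both sets, coloured by role. The x axis is replicates 1 and 2 and the y axis replicate 3. Bars are standard errors, for replicate 3 from the spread between its hours, and the dashed line marks equal values. Most genes lie at the lower left, while 10 lie left of 0 and above 0, among them TAT3, CYP94C1, ILL6, OPCL1 and IAR3.

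**Figure D4:**
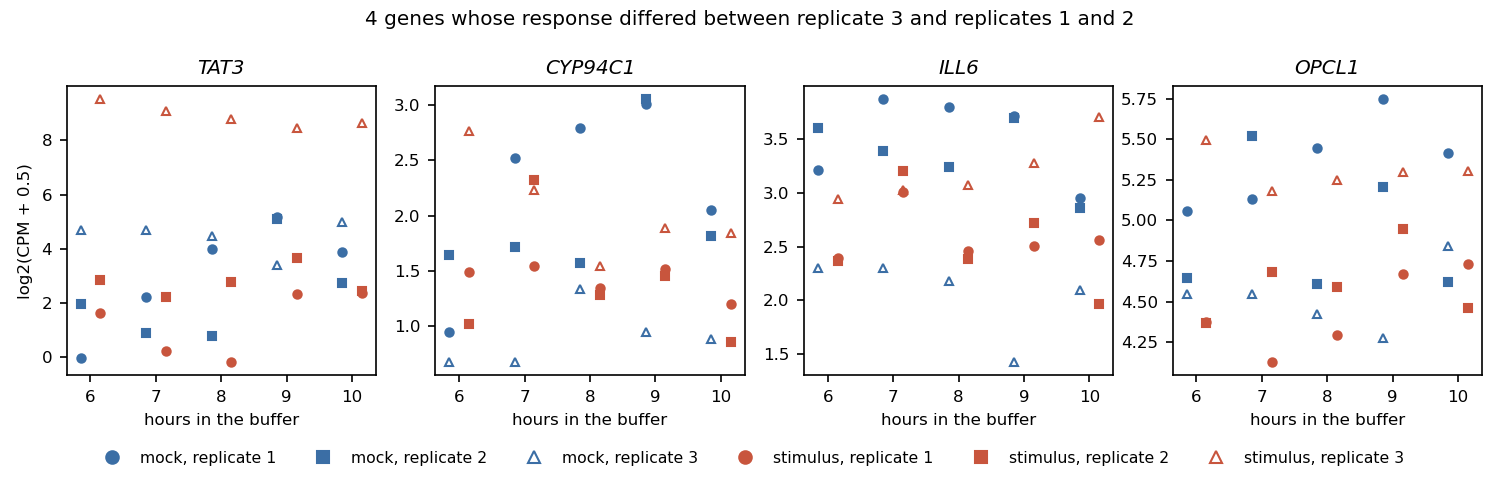
Level of TAT3, CYP94C1, ILL6 and OPCL1 in each library as log2 of CPM plus 0.5 against the hours in the buffer; blue is mock, red stimulus, and open triangles are replicate 3. The red triangles of TAT3 lie above every other library of that gene, at 350 to 730 CPM, and those of OPCL1 lie above all red filled symbols.

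The next comparison concerned drift and spread among the mock libraries. The members tended to move together between hours in mock, 31 up and 8 down from 6 to 7 h, 7 up and 32 down from 7 to 8 h, 34 up and 5 down from 8 to 9 h, and 3 up and 36 down from 9 to 10 h. The medians of these 4 steps were 0.14, -0.11, 0.14 and -0.31 log2, against values from -0.01 to 0.01 over all genes. The genes of a library share its handling and depth, and the 6 and 7 h groups share a library. No member was called in any step in mock or in stimulus by edgeR or DESeq2, nor was any other gene by edgeR (0% of all genes for each treatment). At an unadjusted p under 0.05 there were 3 members in mock, all falls from 9 to 10 h: JAZ8 (-1.32 ± 0.62), AOC1 (-0.75 ± 0.28) and VSP1 (-3.14 ± 1.2). In the stimulus 4 members had such a p, and the step from 7 to 8 h had 7 members up and 32 down with a median of -0.35.

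No member had a linear trend over the hours in mock by edgeR without a block or by DESeq2 (0.722% of all genes did by edgeR). With the replicate number as a block JAZ3 and AOC2 did, as did 807 of 21052 genes. Their slopes were -0.17 ± 0.05 and -0.19 ± 0.05 log2 per hour (edgeR adjusted p = 0.0416 and 0.0313). In replicates 1 and 2 alone 7 members had a called trend in mock, as had 4803 of the 21066 genes tested there. Without the block there were 3 at an unadjusted p under 0.05, JAZ3 and CYP94B3 falling by 0.17 ± 0.08 and 0.44 ± 0.19 log2 per hour and LOX6 rising by 0.11 ± 0.04.

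Replicates of the members were spread more widely than those of genes at large. The median SD of log2(CPM + 0.5) within a group was 0.386 over the members in mock and 0.441 in the stimulus, against 0.293 and 0.294 over all genes tested. The SD was larger in mock than in the stimulus for 18 of 39 members, 46.2%, against 49% of all genes. In replicates 1 and 2 alone this held for 25 of 39, 64.1% against 53.3%, with medians of 0.246 and 0.192. The widest members in mock were VSP1 (SD 1.70), TAT3 (1.65), ORA47 (1.25), JAZ5 (1.24) and MYC2 (0.943).

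For VSP1 the 3 mock libraries at 9 h stood at 40.2, 46.5 and 1.43 CPM, and for ORA47 those at 7 h at 11.9, 40.9 and 1.93 CPM. Replicate 3 was the low one in both. JAZ5 stood at 12.3 to 37.1 CPM in mock replicates 1 and 2 and at 3.31 to 6.94 CPM in mock replicate 3. In 10 of 39 members all mock replicate 3 libraries were below all other mock libraries, and in 0 of 39 all were above, while this held for 16.3% and 19.3% of all genes tested. The 10 were AOC3, OPR3, IAR3, ILL6, JAZ5, JAZ10, MYC2, MYC3, ORA47 and VSP1. In the stimulus replicate 3 was below the others throughout in 4 of the 39 (LOX2, JAZ3, MYC2 and MYC4) and above in 5, the latter being OPCL1, ACX1, COI1, JAZ12 and TAT3. The shares of all genes there were 17.6% below and 19.4% above.

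**Figure D5:**
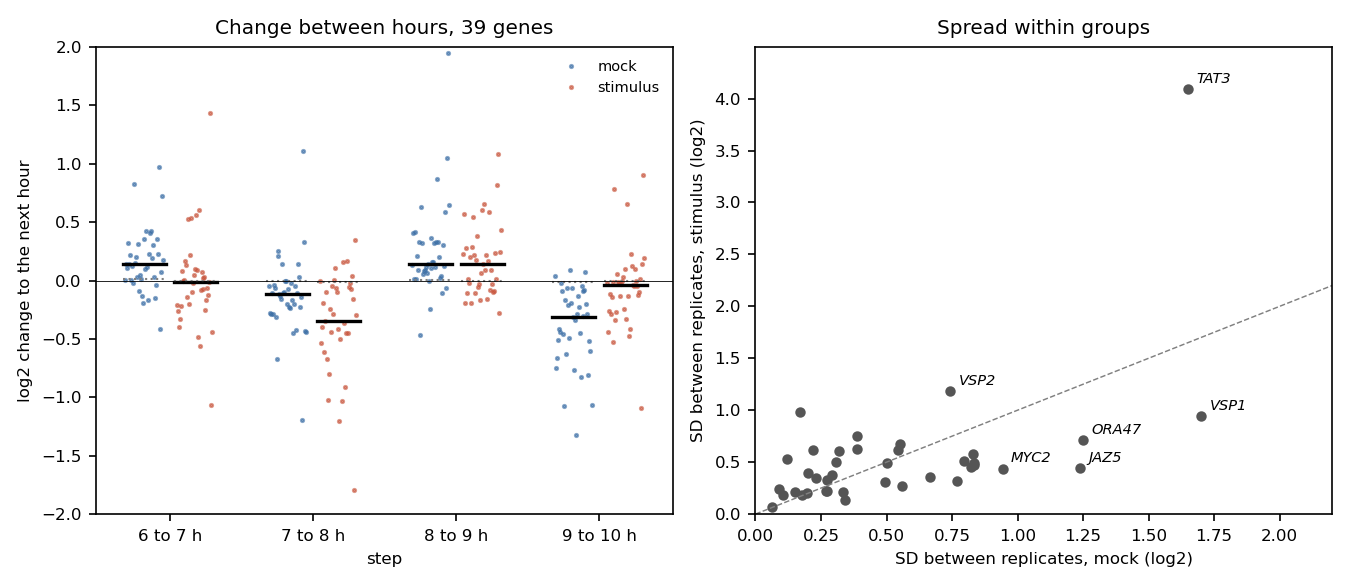
Left, log2 change of each of the 39 genes from one hour to the next in mock (blue) and stimulus (red), with the median as a black line and the median of all genes as a dotted line; 6 points lie outside the axis. Right, SD between replicates within groups, in log2, mock against stimulus, with equality dashed; black medians lie at -0.31 for mock from 9 to 10 h and at -0.35 for the stimulus from 7 to 8 h, and TAT3 stands apart at the top.

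Other genes of the pathway were called in both directions. Of 36 further jasmonate genes 29 were tested, and 15 were lower and 6 higher on average, against 27% and 29.7% of all genes, with a median of -0.29 against 0.02. The lower ones were led by THI2.1, a thionin gene (-4.97 ± 0.94), NATA1, an acetyltransferase gene (-3.53 ± 0.52), JOX2, a jasmonate hydroxylase gene (-3.18 ± 0.34), and PDF1.2A, a defensin gene (-2.34 ± 0.91). PDF1.2A had 21 to 45 counts in the mock libraries of replicate 3, 4 to 12 in the stimulus libraries of replicate 3, and at most 9 and 2 in replicates 1 and 2 of mock and stimulus. The higher ones were led by OPR1, a reductase of the family of OPR3 (2.65 ± 0.33), ERF1, of the ethylene response (2.55 ± 0.25), JAV1, a repressor of jasmonate defence (1.19 ± 0.19), and JASSY, of jasmonate precursor export from the plastid (0.98 ± 0.14). MYC5, a further bHLH factor, was lower by 1.72 ± 0.25.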

How the data were processed

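RNA-seq libraries from ribosome-depleted RNA were strand-specific and paired-end, per the labels' protocols. The authors deposited raw counts per locus for 30 libraries, per the file headers. BWA and TAIR10 are named in the submitters' processing notes, while which program and annotation produced the counts is not given in the sources used here. Loci and promoters were matched to RefSeq TAIR10.1 by identifier, 37751 of the loci and all 42 members.

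Counts were filtered with filterByExpr (21052 genes), scaled by TMM and fitted in edgeR 4.0.16 (R 4.3.3) with 1 mean per group over all 30 columns. Contrasts were stimulus minus mock at each hour and averaged, their interaction with hour (F test), hourly slopes and steps between hours. P-values were adjusted by Benjamini-Hochberg over all genes tested, at a threshold of 0.05. SEs derive from the fold change and its F statistic. CPM are counts per 1e6 of the TMM library size, and means, ranges and medians count the identical columns once. The labels do not say that replicates came from separate sowings, so that p-values cover only the variation among the samples at hand, which may be technical. No interval was needed for shares of counts.

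The members and gene lists were chosen with earlier results of these data known. Full values are given for the 2 members of each role with the largest average change, those higher on average, those with a called trend and those most spread in mock. Values of other members are given as examples. Further pathway genes are named by size, up to 4 in each direction, and MYC5 was named after its value was seen.

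Deviations from group means of mock and stimulus libraries with equal hour and number correlated above 0.1 in 15 of 15 pairs (0.182 to 0.526). A replicate block was therefore also fitted. Over all libraries its values are printed for the averages and trends whose call it changed and, at single hours, for NINJA and COI1. For the other hourly calls that it changed only counts are given. The model above has no block. Replicate 3 stood apart at every hour, which alone can give such correlations. Alternatives were DESeq2 1.42.0 and its size factors, 2 other filters on low counts, a replicate block, scaling without organelle or rRNA and tRNA loci, leaving out single libraries, subsets of libraries or hours, and sums over hours. The fit of replicate 3 alone had terms for hour and treatment, so its hours served as replicates, and it kept both identical columns. The scripts were tested on simulated counts with known changes.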

Additional observations from a re-analysis of the deposited data

Results flagged for a closer look

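The average response to the stimulus differed between replicate 3 and replicates 1 and 2 for 24 of the 40 members tested on counts summed over the hours, by an edgeR test of the difference itself (adjusted p under 0.05), against 38% of all genes tested. The values below are the log2 fold change in replicate 3 minus that in replicates 1 and 2. The spread in this test comes from replicates 1 and 2 alone, and replicate 3 is 1 set, so its own spread was not measured.

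The value was positive for 18 members. Among the synthesis genes these were LOX4 (1.67), AOC1 (0.63), AOC2 (0.51), AOC3 (1.88), OPR3 (0.81), OPCL1 (1.41) and JAR1 (0.39). All 4 turnover genes were among them, with CYP94B3 (1.61), CYP94C1 (2.31), IAR3 (1.25) and ILL6 (2.22). So were the repressor genes and factor JAZ5 (1.88), JAZ6 (1.29), JAZ10 (0.91), JAZ11 (0.61), JAZ12 (0.44) and MYC2 (1.00). TAT3 had the largest difference, 5.67. For LOX4, AOC3, OPCL1, CYP94C1, IAR3, ILL6, JAZ10, JAZ12 and TAT3 the response was below 0 in replicates 1 and 2 and above 0 in replicate 3.

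The value was negative for 6 members, LOX2 (-1.59), JMT (-2.67), JAZ3 (-0.70), MYC4 (-0.91), ORA59 (-2.66) and CORI3 (-1.25), where the log2 fold change was further below 0 in replicate 3 than in replicates 1 and 2 or, for ORA59, where too few counts in replicates 1 and 2 were left for a separate fit. Groups of 3 libraries are too small for a test of single libraries that stand apart, and none was made.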

How the results depend on the processing

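Most results kept their side of the threshold. Over the alternatives other than leaving out 1 library, 1595 hourly and 369 average gene results did so. Another 40 and 40 no longer passed, 95 and 9 newly passed, and 1 and 7 changed sign with a call in the main fit or the alternative. Changes of sign without a call in either were not counted apart and lie among those that kept their side. Of the average results that no longer passed, most did so on sums over hours. DESeq2 gave TAT3 no adjusted p, so its call is not counted as lost there.

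Counts of lower members moved most at single hours. At 6 h they were 12 in the main fit, 19 with a replicate block, 26 in replicates 1 and 2 only and 5 in the libraries of that hour only. The counts over all genes moved as well, in the same order 808 and 2812 of 21052, 2773 of 21066 and 77 of 19538. At 8 h 18 became 29 in replicates 1 and 2 and 10 in the libraries of that hour, and at 10 h 17 became 27 in replicates 1 and 2. Over all genes, 1346 of 21052 at 8 h became 3538 of 21066 and 306 of 19866. At 10 h 1967 of 21052 became 4114 of 21066. Leaving out 1 library gave 11 to 19 at 8 h and 11 to 18 at 10 h, and 30 to 31 for the average. Higher members numbered 1 at 6 h by DESeq2 and with a replicate block, and 1 at 7 h by DESeq2, with a replicate block and in replicates 1 and 2. Summed over hours, 15 were lower and 0 higher on average, and 16 and 0 with a replicate block. Higher on average were 1 in replicates 1 and 2 and 9 in replicate 3 only. The mock trend was called for 2 members with a replicate block, against 807 of 21052 genes. In replicates 1 and 2 it was called for 7, against 4803 of 21066 genes. The stimulus trend was called for 3 by DESeq2 and 3 with a replicate block, against 472 and 1342 of 21052 genes. In replicates 1 and 2 it was called for 11, against 3495 of 21066 genes. It was called for 0 without the 6 h libraries, 0 without the 10 h libraries and 0 to 1 without single libraries. In replicates 1 and 2 the interaction was called for 2 and the difference of trends for 3, against 596 and 1624 of 21066 genes. The replicate block lost the average call of TAT3 and added that of JAZ12 and 25 hourly calls, and beside the trend calls above changed no other call of a member. The subsets hold fewer libraries, and the cause of these moves was not tested.

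Where the main fit or the alternative gave a call, signs changed as follows. In replicates 1 and 2 they did for ILL6 at 10 h (-0.72) and TAT3 on average (-0.66). In replicate 3 only they did for the averages of OPCL1 (0.75), ILL6 (1.19), IAR3 (0.27), LOX4 (0.14), CYP94C1 (1.37) and AOC3 (0.28). Depth limits JAZ8, ORA47, ORA59, VSP1 and CYP94B3, whose stimulus libraries held few counts. It also limits DAD1, JAZ4 and JAZ7, which the filter removed, so that the main fit gives no result for them. Without a filter on counts 32 members were lower on average and 3 higher, against 5706 and 6268 of 31173 genes.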
